A study of Mus musculus with 18 samples.

Results

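The 10 genes described here are the CCN family of matricellular genes and the YAP/TEAD genes that act beside it, 10 of the 51435 genes in the tables. They were chosen by family membership with the genotype difference in level between these same mice, lower Ccn1 and Ccn2 in mutants, already in view. They are Ccn1, Ccn2, Ccn3, Ccn4 and Ccn5 (Cyr61, Ctgf, Nov, Wisp1 and Wisp2 in older names), the coactivator genes Yap1 and Wwtr1 (which encodes TAZ), the transcription factor gene Tead1, and Ankrd1 and Amotl2. Poly(A) RNA was sequenced from the left ventricle (LV) of 18 mice of the C57BL/6J strain, 9 WT and 9 WWP2Mut/Mut, 1 library per mouse. WWP2Mut/Mut mice are homozygous for a 4-bp deletion made by CRISPR/Cas9 in exon 2 of Wwp2, which encodes a ubiquitin ligase of the NEDD4 family. The deletion shifts the reading frame of the full-length and N-terminal isoforms, and the C-terminal isoform is thought to be spared, so the mutant is not a null for the whole gene. WT mice were littermates from heterozygote crosses. All 18 mice received angiotensin II (AngII), a pressor peptide used to bring on ventricular hypertrophy and scarring, at 500 ng/kg/min for 28 days from 8 weeks of age, so none of the values below is a response to AngII itself.

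CCN proteins are secreted into the matrix, where they bind integrins, syndecans and LRP receptors and change how cells respond to growth factors such as TGF-beta. CCN2 is a long-standing marker of fibrosis, CCN1 has been tied to the senescence of fibroblasts, and CCN5, which lacks the C-terminal module of the other members, is known to oppose CCN2. In the Hippo pathway the MST and LATS kinases keep the coactivators YAP and TAZ out of the nucleus, and when these enter it they bind TEAD factors and raise target genes such as Ccn1, Ccn2, Ankrd1 and Amotl2. TGF-beta signalling through SMAD proteins and stretch also act on several of the same genes, so the level of a target does not read out a single pathway.

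The promoters of the target genes are shown first, because the core TEAD element is the sequence that these genes are best known to share. RefSeq promoter windows (250 bases before to 50 bases after a start site, build GRCm38.p6) were at hand for 5 of the 10 genes, Ccn1, Yap1, Wwtr1, Ankrd1 and Amotl2. Entries for Ccn2, Ccn3, Ccn4, Ccn5 and Tead1 were not found in the table. The motif searched was CATTCC, or GGAATG where it lies on the other strand. Every one of the 5 genes held it, against 16.6% of the 27025 genes in the promoter table, and since several members were listed as TEAD targets the count is a description only. The 250 bases upstream of the start site are given below for the 3 target genes, 5′ to 3′ on the strand of the gene and with the motif in capitals, from chr3:145649986-145650235 (minus strand) for Ccn1, chr19:36119845-36120094 (minus strand) for Ankrd1 and chr9:102717554-102717803 (plus strand) for Amotl2.
Ccn1: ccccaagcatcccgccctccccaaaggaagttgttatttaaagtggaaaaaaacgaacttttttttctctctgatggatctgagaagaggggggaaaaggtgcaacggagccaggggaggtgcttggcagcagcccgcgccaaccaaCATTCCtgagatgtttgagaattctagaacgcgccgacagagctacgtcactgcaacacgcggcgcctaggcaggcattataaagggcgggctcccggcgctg
Ankrd1: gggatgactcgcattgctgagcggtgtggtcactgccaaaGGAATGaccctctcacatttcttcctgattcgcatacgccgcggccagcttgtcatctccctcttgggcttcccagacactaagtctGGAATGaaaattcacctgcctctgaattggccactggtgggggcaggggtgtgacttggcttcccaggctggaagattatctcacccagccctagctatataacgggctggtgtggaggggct
Amotl2: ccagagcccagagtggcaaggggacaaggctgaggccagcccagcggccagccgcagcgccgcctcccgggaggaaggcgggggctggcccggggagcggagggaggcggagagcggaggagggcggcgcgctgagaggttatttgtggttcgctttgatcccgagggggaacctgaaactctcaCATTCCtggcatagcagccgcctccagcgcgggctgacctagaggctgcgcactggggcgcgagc

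Ankrd1 held the motif at 2 places, 210 and 123 bases before the start site, both in the GGAATG orientation and 87 bases apart. Of all 32851 windows in the table, 1.33% held it at 2 or more places. Ccn1 held it 103 bases and Amotl2 65 bases before the start site, both as CATTCC. In the coactivator genes themselves the motif lay 141 bases upstream in Yap1 and, in the 2 windows of Wwtr1, 136 and 170 bases upstream, at 1 and the same genomic place. The start sites are those of RefSeq. By the gene positions given further below, the stretches of Ankrd1 and Amotl2 lie inside the gene. A match of these letters is not a measured binding site.

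Wwp2 itself (chr8:107436365-107558595 on GRCm38) was first compared as a check of the labels. It lay between 3.83 and 6.01 TPM in WT and between 1.19 and 3.00 TPM in WWP2Mut/Mut mice, where TPM is the deposited level of a transcript relative to all others, corrected for transcript length. The groups did not overlap, and the log2 fold change of WWP2Mut/Mut over WT was -1.40 (SE 0.157, edgeR quasi-likelihood test, adjusted p = 0.00113). The libraries held 24566994 to 37451087 expected counts, and each of the 4 sequencing lanes held mice of WT and of WWP2Mut/Mut. All 7 cardiomyocyte markers were above 1 TPM in every mouse. Atrial transcripts were raised in 5 libraries, 3 WT and 2 WWP2Mut/Mut. The 6 liver markers summed to 0.21 to 201.3 TPM in WT and to 0.74 to 34.4 TPM in WWP2Mut/Mut mice. WT mouse 43-3, with raised atrial transcripts, was also listed at an RNA concentration of 1.68 ng/µl, against 88.6 to 320.9 ng/µl in the others. In bulk tissue, fewer cells of a type and less RNA per cell cannot be told apart.

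The 10 genes covered more than 3 orders of magnitude. By mean TPM over the 18 mice the order was Ankrd1 (700.2), Ccn2 (42.4), Ccn1 (23.7), Yap1 (13.8), Wwtr1 (10.6), Tead1 (9.85), Amotl2 (7.83), Ccn5 (6.06), Ccn3 (1.13) and Ccn4 (0.184). Ankrd1, a muscle ankyrin repeat gene whose protein binds titin and enters the nucleus under load, was above Ccn2 in 18 of 18 mice. Ccn2 was above Ccn1 in 17 of 18 mice, Ccn1 above Yap1 in 17 and Yap1 above Wwtr1 in 17. The middle of the order was not resolved. Wwtr1 exceeded Tead1 in 12 mice, Tead1 exceeded Amotl2 in 8 although its mean was higher, and Amotl2 exceeded Ccn5 in 12. Ccn5 lay above Ccn3 and Ccn3 above Ccn4 in all 18 mice. The ranges over mice were apart only between Ankrd1 and Ccn2 and between Ccn5 and Ccn3.

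**Figure D1:**
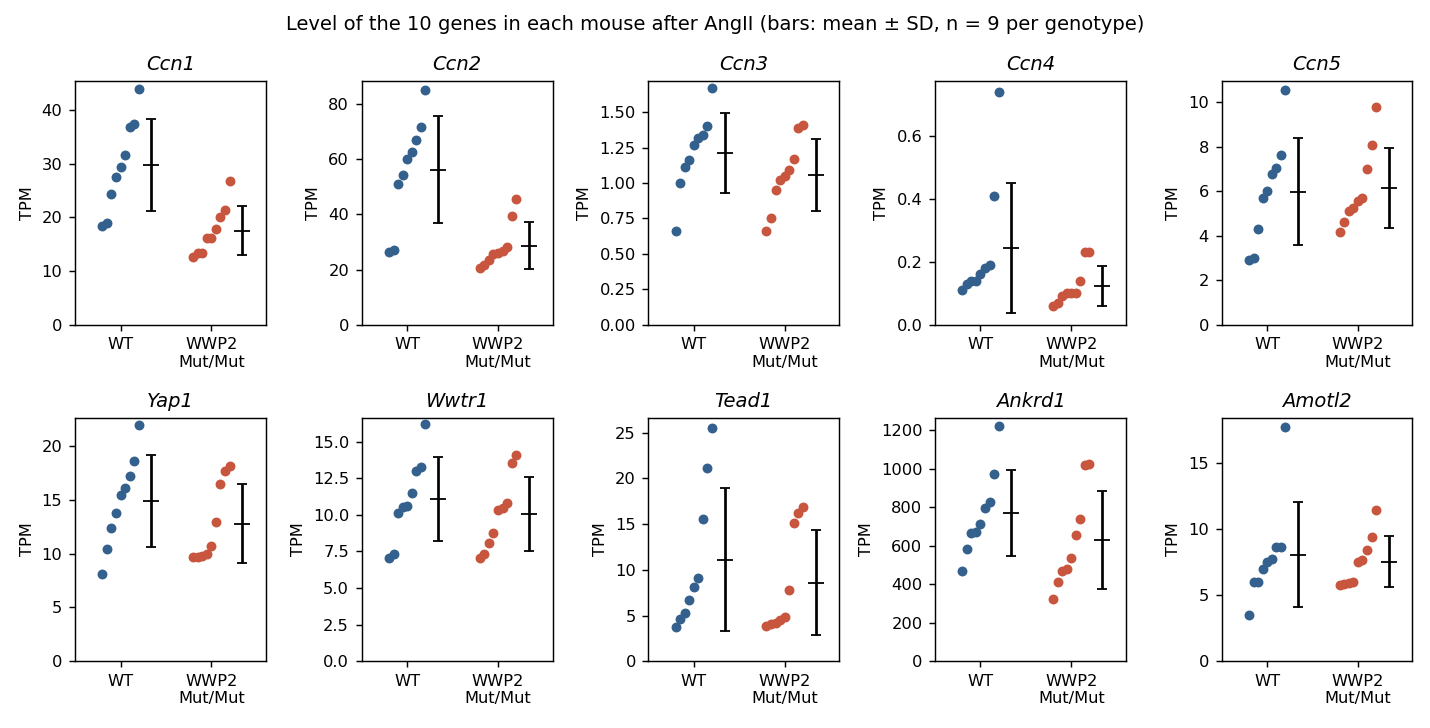
TPM of each of the 10 genes (y axis, linear from 0) in 9 WT and 9 WWP2Mut/Mut mice, 1 point per mouse sorted by value, with mean ± SD beside them. For Ccn1 and Ccn2, 6 and 7 WT mice lie above every WWP2Mut/Mut mouse, for Ccn4 2 do, and for Ccn1, Ccn2 and Ccn4, 6, 5 and 6 WWP2Mut/Mut mice lie below every WT mouse.

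Ccn2 (chr10:24595442-24598683), the connective tissue growth factor gene, had the largest share of CCN transcripts. In WT mice its lowest, median and highest levels were 26.5, 60.2 and 85.2 TPM. In WWP2Mut/Mut mice they were 20.7, 26.0 and 45.8 TPM. Of the WT mice 7 stood above every WWP2Mut/Mut mouse, and the other two, 16-1 at 26.5 and 25-3 at 27.1 TPM, lay among the mutants. The mean was 56.2 ± 19.4 TPM (SD, n = 9) in WT and 28.6 ± 8.45 TPM (SD, n = 9) in WWP2Mut/Mut mice, a ratio of 0.509. In the count model with lane and RNA concentration the fold was 0.649, or -0.62 on the log2 scale (SE 0.212), and the same model gave -0.80 with no covariates and -0.82 with lane alone. RNA concentration itself differed between the groups, with a median of 98.3 ng/µl in WT and 187.4 ng/µl in WWP2Mut/Mut mice, and its part in the difference was not tested.

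Ccn1 (chr3:145646976-145649981), which encodes a ligand of integrins made by fibroblasts and myocytes under stress, separated the genotypes to a similar degree. WT mice ranged from 18.3 to 43.8 TPM around a median of 29.4 TPM. WWP2Mut/Mut mice ranged from 12.6 to 26.7 TPM around a median of 16.2 TPM. Of the WT mice 6 were above every WWP2Mut/Mut mouse and 6 WWP2Mut/Mut mice were below every WT mouse. The means were 29.8 ± 8.59 and 17.5 ± 4.60 TPM (SD, n = 9 each), a ratio of 0.588, and the modelled log2 fold change was -0.64 (SE 0.172), a fold of 0.642.

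These differences were known when the genes were chosen, so no p is given for them. Of the 10 genes, 0 were called at an FDR below 0.05 by edgeR and 0 by DESeq2, where 0.00403% of all 24804 genes tested, namely Wwp2 alone, were called by edgeR. Leaving out each mouse in turn moved the log2 fold change of Ccn1 between -0.75 and -0.57 and that of Ccn2 between -0.74 and -0.55.

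Within the 4 lanes, the WWP2Mut/Mut mean of Ccn2 lay below the WT mean each time. In lane 1 the means were 38.8 TPM in WT and 23.8 TPM in WWP2Mut/Mut, in lane 2 they were 58.6 and 29.4 TPM, in lane 3 76.2 and 36.3 TPM, and in lane 4 53.01 and 24.7 TPM. Every WT mouse of a lane was above every WWP2Mut/Mut mouse of the same lane, with 2 or 3 mice of a genotype per lane. The lane means of Ccn1 were also lower in WWP2Mut/Mut mice in 4 of 4 lanes, at 28.0 against 13.0, 23.9 against 17.0, 40.6 against 21.5 and 27.8 against 18.9 TPM. In lanes 2 and 4 the Ccn1 values of the genotypes overlapped. The highest WT lane mean of both genes was that of lane 3, which held mice 43-3 and 84-2, both with raised atrial transcripts.

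**Figure D2:**
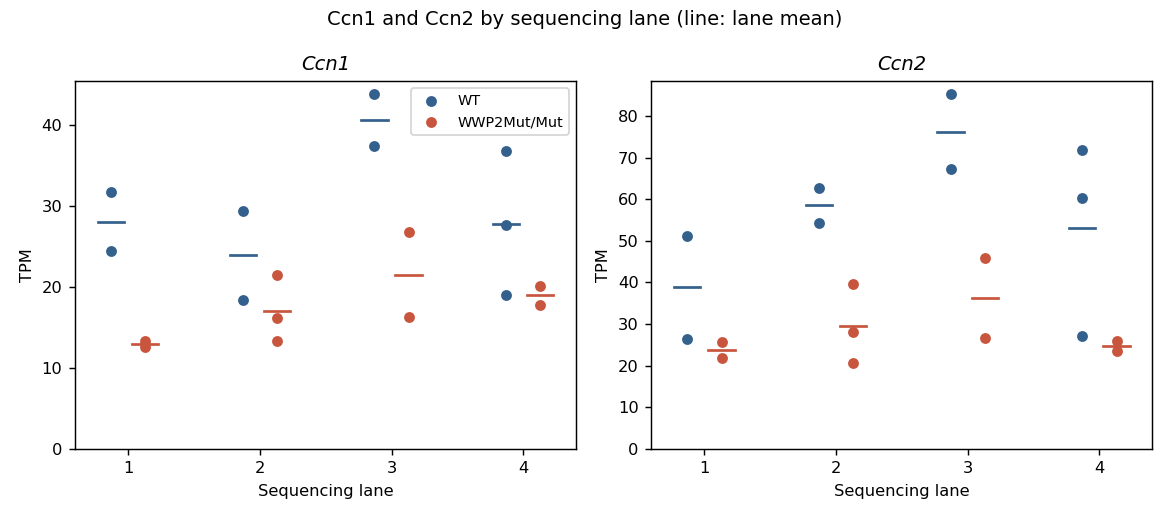
TPM of Ccn1 (left) and Ccn2 (right) against sequencing lane, with 1 point per mouse, blue for WT and red for WWP2Mut/Mut, and a line at each lane mean. In each of the 4 lanes the WWP2Mut/Mut mean is the lower one, and for Ccn2 the points of a lane do not overlap between genotypes.

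Mice with raised atrial transcripts had higher means of both genes inside each genotype. The 3 WT mice with raised atrial transcripts had a Ccn2 mean of 71.7 TPM and a Ccn1 mean of 36.9 TPM, against 48.5 and 26.3 TPM in the other 6 WT mice. In WWP2Mut/Mut mice the 2 with raised atrial transcripts had means of 34.6 TPM for Ccn2 and 23.4 TPM for Ccn1, against 26.9 and 15.8 TPM in the other 7. The part of atrial tissue in the genotype difference was not tested. Without all 5 such mice the log2 fold change was -0.65 for Ccn1 and -0.62 for Ccn2.

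Ccn3, Ccn4 and Ccn5 were the minor members of the family. Ccn3 (chr15:54745702-54754039), whose protein is known to oppose CCN2 in several tissues, ranged from 0.66 to 1.67 TPM in WT and from 0.66 to 1.41 TPM in WWP2Mut/Mut mice, a log2 fold change of -0.12 (SE 0.173). Ccn4 (chr15:66891320-66923201), a WNT-induced gene, was close to the limit of counting, with 15 to 130 counts a mouse. Its level was 0.11, 0.16 and 0.74 TPM (lowest, median and highest) in WT and 0.06, 0.10 and 0.23 TPM in WWP2Mut/Mut mice, a log2 fold change of -0.45 (SE 0.261). The groups overlapped for both genes, though 6 WWP2Mut/Mut mice had less Ccn4 than every WT mouse and its mean TPM ratio was 0.509. In lanes 1, 2 and 3 every WT mouse had more Ccn4 than every WWP2Mut/Mut mouse, and in lane 4 the values overlapped.

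Mice with raised atrial transcripts also had more Ccn4. In WT these 3 mice had 0.18 to 0.74 TPM, against 0.11 to 0.19 TPM in the other 6, with means of 0.443 and 0.145 TPM. In WWP2Mut/Mut mice both such mice had 0.23 TPM, against 0.06 to 0.14 TPM in the other 7. Without the 5 mice the log2 fold change of Ccn4 was -0.50, and the part of atrial tissue in these levels was not tested.

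Ccn5 (chr2:163820861-163833146) was 1 of 2 members with a positive log2 fold change. It ranged from 2.90 to 10.6 TPM around a median of 5.99 TPM in WT and from 4.18 to 9.78 TPM around a median of 5.54 TPM in WWP2Mut/Mut mice, a log2 fold change of 0.21 (SE 0.268). The WWP2Mut/Mut values lay inside the WT range. The 5 CCN genes together summed to 93.5 ± 28.0 TPM in WT and 53.5 ± 12.8 TPM in WWP2Mut/Mut mice (SD, n = 9 each). Ccn2 made up 59.3% ± 6.91 of that sum in WT and 53.3% ± 6.44 in WWP2Mut/Mut mice, and Ccn1 32.6% ± 6.11 and 32.9% ± 5.80. The share of Ccn5 was 6.45% ± 1.91 in WT, with a range of 3.76% to 10.1%, and 11.5% ± 2.31 in WWP2Mut/Mut mice, with a range of 8.82% to 15.5%. The share of Ccn1 was thus near equal between genotypes and that of Ccn5 higher in WWP2Mut/Mut mice, a description that rests on the same values as the differences above.

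The coactivator genes had the smallest negative log2 fold changes of the 10. Yap1 (chr9:7931999-8004596) had its lowest, median and highest levels at 8.12, 15.5 and 21.9 TPM in WT and at 9.65, 10.7 and 18.1 TPM in WWP2Mut/Mut mice, a log2 fold change of -0.08 (SE 0.134). Wwtr1 (chr3:57455649-57575910) had 7.04, 10.6 and 16.2 TPM in WT and 7.06, 10.4 and 14.1 TPM in WWP2Mut/Mut mice, a log2 fold change of -0.08 (SE 0.122). The groups overlapped over almost their whole range. Yap1 exceeded Wwtr1 in 17 of 18 mice, by 1.31 ± 0.191 times (SD, n = 18). Both are regulated mainly through phosphorylation and location of the protein, which RNA levels do not show.

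Tead1 (chr7:112679318-112906807), the TEAD gene with the highest mean level in these ventricles, varied more between mice than any other member except Ccn4, with a coefficient of variation of 68.8%. It ranged from 3.76 to 25.5 TPM in WT, with a median of 8.15 TPM, and from 3.83 to 16.9 TPM in WWP2Mut/Mut mice, with a median of 4.84 TPM. Its log2 fold change was -0.36 with an SE of 0.390, larger than the change itself. The WWP2Mut/Mut mice fell into separate sets, with 3.83 to 4.84 TPM in 5 mice, 7.80 TPM in mouse 8-2 and 15.2 to 16.9 TPM in mice 22-3, 33-1 and 62-1. The lane means of Tead1 went both ways, at 4.52 TPM in WT and 10.4 TPM in WWP2Mut/Mut in lane 1 but 20.5 and 6.01 TPM in lane 3.

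Of the target genes outside the CCN family, Ankrd1 (chr19:36111961-36120099) had 471, 714 and 1221 TPM (lowest, median and highest) in WT and 324, 539 and 1027 TPM in WWP2Mut/Mut mice. The groups overlapped, with 3 WWP2Mut/Mut mice below every WT mouse and 1 WT mouse above every WWP2Mut/Mut mouse. Its log2 fold change was -0.31 (SE 0.160), and its lane means were lower in WWP2Mut/Mut mice in 4 of 4 lanes. WT mice with raised atrial transcripts had a mean of 1008 TPM, against 651 TPM in the other WT mice. Amotl2 (chr9:102716672-102733418), which encodes a junction protein that binds YAP, ranged from 3.48 to 17.8 TPM in WT and from 5.82 to 11.5 TPM in WWP2Mut/Mut mice. Its log2 fold change was 0.03 (SE 0.193), and the sign was negative in 5 of 16 other settings and in 5 of 18 fits without 1 mouse.

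**Figure D3:**
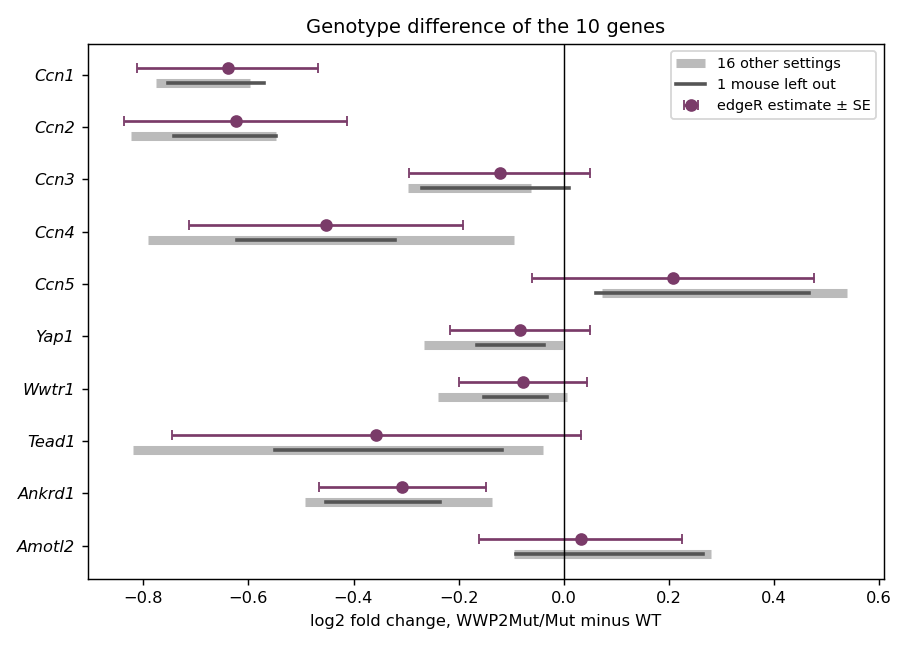
Log2 fold change of WWP2Mut/Mut over WT (x axis) for each gene (y axis), with the edgeR estimate ± SE as points and bars and, beneath each, the range over 16 other settings (grey) and over 18 fits with 1 mouse left out (dark line). Ccn1 and Ccn2 lie at -0.64 and -0.62, and the ranges of Ccn3, Wwtr1 and Amotl2 cross 0.

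Across the 10 genes, 8 log2 fold changes were negative and 2 positive, with a median of -0.21 beside -0.01 for all 24804 genes tested, of which 12879 were negative. The 10 genes were chosen with lower Ccn1 and Ccn2 in mutants in view, so their count and median are a description only. The other genes of the pathway were read from 5 lists, in which edgeR and DESeq2 each called 0 genes. Among 24 Hippo kinases and adaptors (Lats1, Lats2, Nf2, Sav1 and others), 20 were negative, with a median of -0.08, and 0 had an unadjusted p below 0.05 by either tool. The 2 with the smallest p were Wtip (log2 fold change 0.26, SE 0.199) and Wwc1 (-0.68, SE 0.540), the latter below 0.6 TPM in every mouse. Among 7 genes of the other TEAD factors and VGLL cofactors, 6 were negative with a median of -0.05, and 0 had an unadjusted p below 0.05 by either tool. Vgll4, a cofactor that competes with YAP for TEAD, had 5.55 TPM in WT and 4.29 TPM in WWP2Mut/Mut mice (log2 fold change -0.23, SE 0.198). Vgll1 was at 0 in every WT mouse and at most 0.02 TPM in WWP2Mut/Mut mice, so no fold is given.

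Among 18 YAP/TEAD target genes outside the 10, of which Lats2 and Ptpn14 (both negative) were also counted with the Hippo adaptors, 15 were negative with a median of -0.13. By unadjusted p, 2 were below 0.05 in edgeR and 3 in DESeq2, beside 908 and 597 of all 24804 genes. Tgfb2, which encodes a TGF-beta ligand, had 1.57 ± 0.532 TPM in WT and 1.05 ± 0.239 TPM in WWP2Mut/Mut mice (SD, n = 9 each), with a log2 fold change of -0.41 (SE 0.140) that did not pass (edgeR, adjusted p = 0.965). Foxf2 was below 0.12 TPM in every mouse and did not pass either (edgeR, adjusted p = 0.963). Among 12 CCN receptor genes, the integrin, syndecan and LRP genes included, 7 were negative and 5 positive, with a median of -0.04 and 0 with an unadjusted p below 0.05 by either tool. The 2 with the smallest p, Sdc4 and Itgb3, had log2 fold changes of 0.23 (SE 0.139) and 0.19 (SE 0.220). Differences in receptor transcripts thus had a median near that of all genes.

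Among 9 load and stress genes of cardiomyocytes, 7 were negative with a median of -0.34, the lowest of the 5 lists, and the range ran from -0.66 to 0.09. By unadjusted p, 1 was below 0.05 in edgeR and 2 in DESeq2, beside the same 908 and 597 of 24804 genes. Ankrd23, a relative of Ankrd1 in the titin complex, had 386 ± 150.2 TPM in WT and 261 ± 75.8 TPM in WWP2Mut/Mut mice (SD, n = 9 each), with a log2 fold change of -0.34 (SE 0.157) that did not pass (edgeR, adjusted p = 1). Xirp2 had 40.8 and 33.3 TPM, with a log2 fold change of -0.35 (SE 0.178). The lists of fibroblast, endothelial, smooth muscle, immune, erythrocyte, atrial, epicardial, liver and adipocyte markers and of cardiomyocyte markers also held 0 genes called by edgeR. The 7 fibroblast markers, from the cell type best known for CCN2, summed to 187 to 520 TPM in WT, with a median of 356 TPM, and to 218 to 410 TPM in WWP2Mut/Mut mice, with a median of 288 TPM. Their median log2 fold change was -0.15. The medians of the other marker lists were -0.03 for cardiomyocyte, -0.03 for endothelial, 0.05 for smooth muscle and pericyte, -0.05 for immune, 0.15 for erythrocyte, 0.11 for atrial, -0.27 for epicardial, -1.88 for liver and -0.94 for adipocyte markers. The liver markers thus had the lowest median, and their summed level had a median of 43.2 TPM in WT and 8.60 TPM in WWP2Mut/Mut mice. With the liver markers added to the model, the log2 fold change was -0.74 for Ccn1, -0.55 for Ccn2, -0.79 for Ccn4, 0.54 for Ccn5 and -0.82 for Tead1. In WT mice the mean of the fibroblast markers had r = 0.67 and rho = 0.62 with Ccn2, which did not pass (exact permutation test, p = 0.0461 and 0.0857, adjusted p = 0.226 and 0.332 over 240 relations), and r = 0.13 without the 2 farthest mice. In WWP2Mut/Mut mice the same relation had r = 0.01 and rho = -0.05 (exact permutation test, p = 0.985 and 0.912, adjusted p = 0.990 and 0.990). The immune markers had values as high in WT mice, with r = 0.69 and rho = 0.57 for Ccn2 and r = 0.72 and rho = 0.85 for Ccn1, none past the threshold (exact permutation test, p = 0.0398, 0.121, 0.027 and 0.00607, adjusted p = 0.213, 0.419, 0.183 and 0.162). Without 2 mice these r were 0.14 and 0.81. In WWP2Mut/Mut mice the immune markers had r = -0.19 and rho = -0.38 for Ccn2 and r = 0.59 and rho = 0.65 for Ccn1. None of these passed (exact permutation test, adjusted p = 0.776, 0.568, 0.313 and 0.307). Ccn1 had r = 0.54 and rho = 0.75 with the fibroblast markers, which did not pass either (exact permutation test, p = 0.134 and 0.0255, adjusted p = 0.348 and 0.249), with r = 0.43 without 2 mice. Other marker lists gave values as large that did not pass either. In WT mice Ccn2 had r = 0.37 and rho = 0.87 with the adipocyte markers (exact permutation test, adjusted p = 0.559 and 0.135). In WWP2Mut/Mut mice Ccn1 had r = -0.79 and rho = -0.78 with the liver markers (exact permutation test, adjusted p = 0.14 and 0.249). The part of these cell types in the genotype difference was not tested.

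Variation between mice of a single genotype was not used to choose the genes, and it was therefore tested. Pearson's r and Spearman's rho of log2(TPM + 1) were computed for all 45 pairs of the 10 genes in each genotype, with two-sided exact permutation tests adjusted over the 90 values. In WT mice 42 of 45 pairs had a positive r, with a median of 0.51. The highest values were between the 2 coactivators and Tead1. Yap1 and Tead1 had r = 0.91 and rho = 0.98 (exact permutation test, p = 0.000606 and 5e-05, adjusted p = 0.0135 and 0.00298), with r = 0.91 without the 2 mice farthest from the median. Wwtr1 and Tead1 had r = 0.91 and rho = 0.88 (exact permutation test, p = 0.000581 and 0.00307, adjusted p = 0.0135 and 0.0478), with r = 0.83 without 2 mice. Yap1 and Wwtr1 had r = 0.92 but a rho of 0.82 that did not pass (exact permutation test, p = 0.000557 and 0.0108, adjusted p = 0.0135 and 0.0746), with r = 0.79 without 2 mice.

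Ccn4 and Ankrd1 were the remaining WT pair past the threshold by r, at r = 0.84 and rho = 0.77 (exact permutation test, p = 0.00075 and 0.0193, adjusted p = 0.0135 and 0.124). Its r was 0.64 without the 2 farthest mice, and it was no longer called without mouse 43-3 (r = 0.73), 16-1 (r = 0.90) or 84-2 (r = 0.82), each over 8 mice (exact permutation test, adjusted p = 0.306, 0.0715 and 0.0607). With lane and RNA concentration removed, its r was 0.37 (exact permutation test, adjusted p = 0.600). The 3 pairs of Yap1, Wwtr1 and Tead1 kept r between 0.87 and 0.89 without mouse 43-3 and no longer passed over the remaining 8 mice (exact permutation test, adjusted p = 0.0954 to 0.105). Yap1 and Wwtr1 also did not pass without mouse 16-1 (r = 0.89) or 94-2 (r = 0.92), each over 8 mice (exact permutation test, adjusted p = 0.0715 and 0.0567). By rho 6 WT pairs were called and, beside the 2 already given, 3 of them joined Ccn4 to the coactivators and Tead1. Ccn4 had rho = 0.98 with Tead1, 0.95 with Yap1 and 0.88 with Wwtr1 (exact permutation test, p = 6.6e-05, 0.000386 and 0.00319, adjusted p = 0.00298, 0.0116 and 0.0478), while the r values of 0.78, 0.67 and 0.75 did not pass (exact permutation test, adjusted p = 0.0636, 0.181 and 0.114). Without 2 mice these r were 0.92, 0.97 and 0.82. Yap1 and Amotl2 had rho = 0.88 and r = 0.73 (exact permutation test, p = 0.00307 and 0.0267, adjusted p = 0.0478 and 0.141), with r = 0.42 without 2 mice. Lanes held at most 3 mice of a genotype, too few for values within a lane.

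None of the correlations of Ccn1 or Ccn2 with the coactivators or Tead1 passed. In WT mice its r was 0.38 with Yap1, 0.30 with Wwtr1 and 0.19 with Tead1 (exact permutation test, adjusted p = 0.521, 0.614 and 0.752). Without the 2 farthest mice these were 0.45, 0.32 and 0.65, and rho over 9 mice was 0.37, 0.25 and 0.38 (exact permutation test, adjusted p = 0.531, 0.651 and 0.521). For Ccn1 the r values were 0.21, 0.29 and 0.20 and the rho values 0.28, 0.30 and 0.33 (exact permutation test, adjusted p = 0.722, 0.623 and 0.730 for r and 0.622, 0.614 and 0.569 for rho), and r without 2 mice was 0.84, 0.94 and 0.86, so a pair of mice decided these values. Ccn2 with Ankrd1 had r = 0.74 and rho = 0.85, neither past the threshold (exact permutation test, adjusted p = 0.127 and 0.0607), with r = 0.92 without 2 mice. Ccn2 with Ccn1 had r = 0.67 and rho = 0.63, which did not pass (exact permutation test, adjusted p = 0.181 and 0.263), with r = 0.71 without 2 mice. In WWP2Mut/Mut mice Yap1 and Tead1 fell into separate sets of mice too small to test, so no r is given for them, although Yap1 with Tead1 passed by r and is counted among 5 pair values called in all. Of the remaining 28 pairs in WWP2Mut/Mut mice, 24 were positive, with a median of 0.38, and 0 were called (exact permutation test), with 3 at an unadjusted p below 0.05. The highest was Ccn1 with Ccn4 at r = 0.82. The difference in r between genotypes was not tested.

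**Figure D4:**
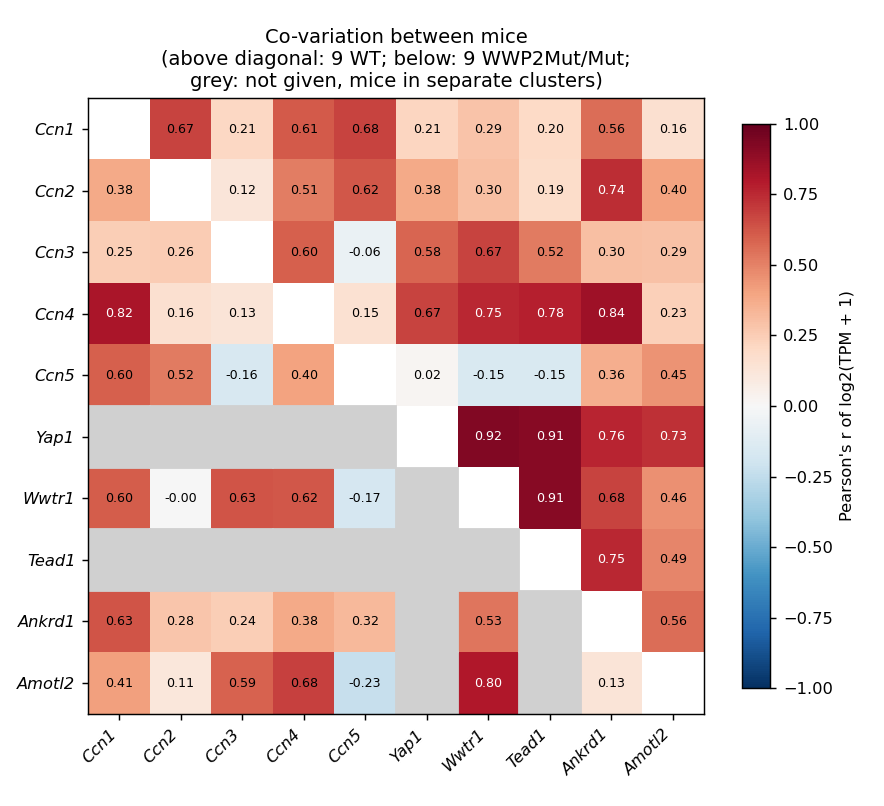
Pearson's r of log2(TPM + 1) between each pair of genes across mice, for 9 WT mice above the diagonal and 9 WWP2Mut/Mut mice below it, from blue (-1) to red (1). The block of Yap1, Wwtr1 and Tead1 in WT mice holds values of 0.91 and 0.92, Ccn2 has 0.19 to 0.38 with them, and grey cells are the WWP2Mut/Mut pairs of Yap1 and Tead1, for which mice fall into separate sets.

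The shared variation of Yap1, Wwtr1 and Tead1 moved with a measure of RNA coverage. The deposited gene body coverage fraction, whose definition the table does not state, lay between 0.0288 and 0.0540, with a median of 0.0383 in WT and 0.0434 in WWP2Mut/Mut mice. In WT mice it had r = -0.93 with Yap1, -0.96 with Wwtr1 and -0.91 with Tead1 (exact permutation test, p = 0.000325, 1.7e-05 and 0.000675, adjusted p = 0.0324, 0.00397 and 0.0324 over 240 relations). The rho values were -0.90, -0.95 and -0.95 (exact permutation test, p = 0.00203, 0.000353 and 0.000353, adjusted p = 0.0973, 0.0423 and 0.0423). Without the 2 mice farthest from the median coverage, r was -0.77, -0.89 and -0.90. Ccn4 in WT mice had r = -0.64 and rho = -0.92 with the fraction, which did not pass (exact permutation test, p = 0.0551 and 0.00097, adjusted p = 0.245 and 0.0582). Among WT mice the 3 highest Tead1 levels, 25.5, 21.1 and 15.6 TPM, were in the 3 mice with the lowest coverage fraction, 0.0288, 0.0295 and 0.0318. Of these, 43-3 and 84-2 had raised atrial transcripts and 25-3 did not. The remaining WT mouse with raised atrial transcripts, 45-1, had a fraction of 0.0408. Tead1 also had r = 0.90 with the cardiomyocyte markers in WT mice, with a rho of 0.80 that did not pass (exact permutation test, p = 0.000593 and 0.0138, adjusted p = 0.0324 and 0.249), and r = 0.80 without 2 mice.

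The WWP2Mut/Mut mice split the same way. The 4 with coverage fractions of 0.0313 to 0.0324 (22-3, 33-1, 62-1 and 8-2) had 7.80 to 16.9 TPM of Tead1 and 12.9 to 18.1 TPM of Yap1. Both WWP2Mut/Mut mice with raised atrial transcripts, 22-3 and 8-2, were among these 4. The other 5, at 0.0434 to 0.0526, had 3.83 to 4.84 TPM of Tead1 and 9.65 to 10.7 TPM of Yap1. These sets are too small for a correlation within them. In the same sets Ccn1 had 13.3 to 26.7 TPM in the 4 mice and 12.6 to 17.8 TPM in the other 5, and Ccn2 had 20.7 to 45.8 and 21.7 to 39.6 TPM. Ccn4 had 0.10 to 0.23 TPM in the 4 mice and 0.06 to 0.10 TPM in the other 5. The 3 highest Ccn1 levels of WWP2Mut/Mut mice, 26.7, 21.4 and 20.1 TPM, were thus in mice with a low fraction. Ccn1 and Ccn2 had r = -0.13 and -0.28 with the fraction in WT mice and were not called (exact permutation test, adjusted p = 0.861 and 0.660). With the fraction added to the genotype model, the log2 fold change was -0.68 for Ccn1, -0.67 for Ccn2 and -0.09 for Tead1.

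**Figure D5:**
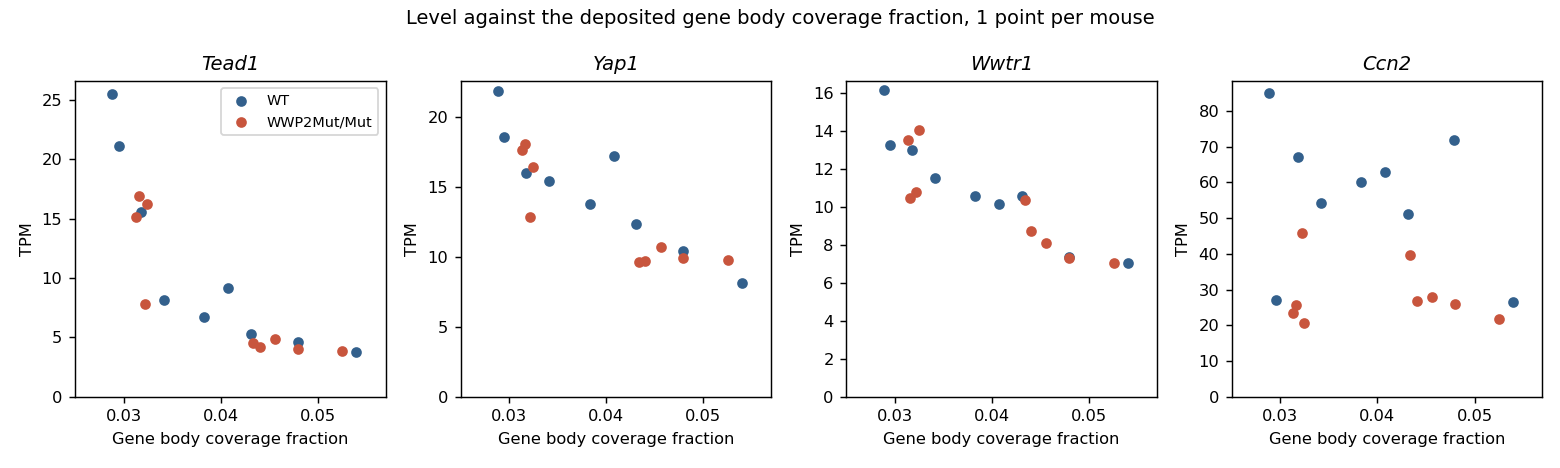
TPM (y axis) of Tead1, Yap1, Wwtr1 and Ccn2 against the deposited gene body coverage fraction (x axis), 1 point per mouse, blue for WT and red for WWP2Mut/Mut. Tead1, Yap1 and Wwtr1 are highest in the mice with the lowest fraction in both genotypes (WT r of -0.91, -0.93 and -0.96), and Ccn2 has a WT r of -0.28 with it.

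The correlations also depended on the scale. Deposited TPM summed to between 671770 and 826381 per mouse, and that total itself moved with the coverage fraction (r = 0.65 over 9 WT mice, given without a test). On log2 CPM, counts relative to library size after TMM normalization, 0 of the 90 pair values were called by r or rho (exact permutation test), with 9 at an unadjusted p below 0.05 against 23 on log2(TPM + 1). On that scale the WT r was 0.86 for Yap1 and Tead1, 0.69 for Wwtr1 and Tead1 and 0.66 for Yap1 and Wwtr1 (exact permutation test, adjusted p = 0.139, 0.329 and 0.329). The r with the coverage fraction was -0.93 for Yap1, -0.91 for Tead1 and -0.77 for Wwtr1 (exact permutation test, adjusted p = 0.0893, 0.0893 and 0.239). With the coverage fraction removed from log2(TPM + 1), the 3 WT pairs of Yap1, Wwtr1 and Tead1 had r between 0.33 and 0.40 and were not called (exact permutation test, adjusted p = 0.734 to 0.791). In that setting Ccn4 in WT mice had rho = 0.55 with Tead1 and 0.53 with Wwtr1, and neither was called (exact permutation test, adjusted p = 0.571 and 0.571).

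Genes with the pattern most like Ccn2 and Ankrd1 were named by the mean of the 2 within-genotype r values over 9 mice each, among 11315 genes above 1 TPM. For Ccn2 they were Hes6, Kdelr3, Arl2, Atf3 and Fkbp8, with a mean r of 0.81 to 0.80. Atf3 encodes a stress-induced transcription factor. Among the other members Ccn5 ranked 336 of 11315 for likeness to Ccn2, Ccn1 557, Ankrd1 653, Amotl2 3091, Ccn3 4284 and Wwtr1 5050. For Ankrd1 the most alike were E230013L22Rik, Ogg1, Slc10a3, Thoc3 and Ddx56, with a mean r of 0.91 to 0.87, and Wwtr1 ranked 2332, Ccn1 2580, Ccn2 4374, Amotl2 6545, Ccn5 6580 and Ccn3 7148. Ccn4 lay below 1 TPM and was not ranked. Ranks of Yap1 and Tead1 are not given, since their WWP2Mut/Mut values fell into separate sets. These are descriptions across mice, each with 1 library, and no p is given.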

How the data were processed

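Poly(A) RNA of 18 left ventricles was sequenced as directional libraries. The authors aligned the reads to m38 with STAR 2.5.2b and quantified Ensembl 89 genes with RSEM 1.2.31, versions that the submitters' processing notes also give, and removed rRNA and mitochondrial genes. They deposited expected counts, TPM per gene and mouse, and a sample table with lane, RNA concentration and a gene body coverage fraction. The deposited expected counts were rounded. Of these values 5.11% were not whole.

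Genotype was tested by edgeR 4.0.16 in R 4.3.3 (TMM, quasi-likelihood) over the 24804 genes whose counts summed to more than 1, with lane and centred RNA concentration as covariates, Benjamini-Hochberg adjustment and an FDR below 0.05. DESeq2 1.42.0 and limma 3.58.1 on the TPM were alternatives, beside other filters, size factors, covariates and left-out mice. The study's own DESeq2 model had the same covariates. The edgeR script was first tested on simulated data. Correlations were computed within a genotype in Python 3.11.15 (numpy 2.4.6) over all pairings. The PPxY motif of proteins was not analysed here. The labels do not say whether any mice shared a litter, and the p-values rest on the variation between these mice.

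The members and lists were chosen with earlier results of these data known. Named genes are the 10 members, Wwp2, the 2 genes with the smallest p in each list where none was called, and the 5 genes most like Ccn2 and Ankrd1. Beside these, Lats1, Lats2, Nf2 and Sav1 are named as examples of a list and Lats2 and Ptpn14 as shared by 2 lists. Cyp2c37 and Ugt1a1 are named as called in other fits. Atrial transcripts were called raised where the mean log2(TPM + 1) of 5 atrial markers was 2 or more. Positions are those of GRCm38 genes. The results text of the study gives fewer mice per genotype than its methods, and all 18 were used.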

Additional observations from a re-analysis of the deposited data

Results flagged for a closer look

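Among the 24 sets of 9 mice examined, 3 values stood farther from the rest than Dixon's 95% limit allows, where chance gives about 1 in 20 sets. Ccn4 was at 0.74 TPM in WT mouse 43-3, with the next WT mouse at 0.41 TPM. The same mouse had the lowest RNA concentration, 1.68 ng/µl, with the next at 88.6 ng/µl, and it had raised atrial transcripts. Amotl2 was at 17.8 TPM in WT mouse 45-1, with the next WT mouse at 8.65 TPM. Without mouse 45-1 the log2 fold change of Amotl2 was 0.26 in place of 0.03, and it was not called.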

How the results depend on the processing

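All 10 genes stayed uncalled under every setting tried. Each log2 fold change moved by less than 1 SD of the spread between mice in all 340 refitted values, from 16 other settings and 18 fits without 1 mouse. This limit is wide, since for every gene but Ccn1 and Ccn2 the SD was larger than the log2 fold change itself (0.75 and -0.36 for Tead1). The sign was kept by Ccn1 (-0.78 to -0.60 over 16 settings), Ccn2 (-0.82 to -0.55), Ccn4 (-0.79 to -0.10), Ccn5 (0.07 to 0.54), Yap1 (-0.27 to -0.00), Tead1 (-0.82 to -0.04) and Ankrd1 (-0.49 to -0.14), and the size moved by over 1.5 times for the last 5. With 1 mouse left out Tead1 lay between -0.55 and -0.12 and Ccn5 between 0.06 and 0.47. It turned for Ccn3 without WWP2Mut/Mut mouse 52-1 (0.01), for Wwtr1 with no covariates (0.01) and for Amotl2 in 5 settings and 5 fits without 1 mouse. The count of genes called in all was 1 but 0 with liver markers added, and, in settings chosen after seeing the data, 2 with the rank of RNA concentration (Cyp2c37 and Wwp2) and 0 without the 5 mice with raised atrial transcripts. It was 1 to 2 with 1 mouse left out, with Ugt1a1 beside Wwp2 without WT mouse 84-2 or WWP2Mut/Mut mouse 1-2. The cause was not tested. Pair correlations called by r numbered 5 (4 in WT and 1 in WWP2Mut/Mut mice), but 0 on TMM log2 CPM, 10 with lane and RNA concentration removed (5 and 5) and 1 with the coverage fraction removed (0 and 1), a setting chosen after seeing the data. With 1 mouse left out they numbered 1 to 12, namely 1 without WT mouse 43-3 (0 in WT), 3 without 16-1 and 12 without 25-3. Pairs called by rho numbered 6, but 0 on TMM log2 CPM, 2 with lane and RNA concentration removed and 0 with the coverage fraction removed. With 1 mouse left out they numbered 2 to 9, with 2 without WT mouse 16-1, 39-1, 43-3, 45-3, 67-1 or 94-2. Relations with RNA quality and markers called by r numbered 5, and 0 on TMM log2 CPM, chosen after seeing the data, with 28 at an unadjusted p below 0.05. Ccn4, at 15 to 130 counts a mouse, is the member whose precision is most limited by depth. No paired analysis was possible because the mouse numbers of the genotypes are not shared.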
